A study of Mus musculus with 8 samples.

Results

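The genes described here are the microRNA genes detected in regulatory T cells (Tregs) of tumor-bearing mice. Of 2207 genes with the biotype miRNA, 186 reached at least 1 FPKM (fragments per kilobase of gene, scaled to the depth of the library) in at least 2 of the 4 tumor libraries and form the set, out of 55487 genes in all. The set was therefore chosen by these measured FPKM values. Splenic Tregs of C57BL/6 mice, sorted for GFP, were profiled as total RNA with SMART-Seq v4, a kit that amplifies cDNA from little RNA, in 8 libraries in 4 groups of 2. The groups were SRC-3KO and Control from tumor-bearing mice, and SRC-3KO and Control from mice without a tumor. SRC-3 is the transcriptional coactivator encoded by Ncoa3, and the series asks how Tregs that lack it differ in their transcriptome, in relation to an anti-tumor effect. Both tumor Controls and replicate 2 of the no-tumor Controls are named as Foxp3-Cre, which places Cre under the Treg gene Foxp3, whereas the name of replicate 1 of the no-tumor Controls says wild type, and GFP is missing from its source label. The names of both no-tumor SRC-3KO libraries include Tam1, which the labels do not explain. The labels give no age, tumor type or deleted exon, and do not say that replicates came from separate animals, so p-values measure only the spread between these samples.

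MicroRNAs are made from hairpins that Drosha and Dgcr8 cut from a longer primary transcript, that Dicer trims, and that an Argonaute protein carries to target messenger RNAs matching the seed, bases 2 to 8 of the mature strand. Many hairpins lie inside introns or exons of other genes and are transcribed with them. In Tregs, Dicer and individual microRNAs such as miR-155 and miR-146a are known to be needed for normal function. A library of long cDNA does not capture the mature strand, so a value of a hairpin gene can hold reads of its primary transcript, of a host messenger RNA or of another copy of the sequence.

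The sequences the results turn on are the microRNAs of the miR-23, miR-27 and miR-24 clusters and the hairpin genes with the highest values. RefSeq (build GRCm38.p6) held 104 of the 186 symbols. In the mature sequences below, capitals mark the seed. Mir24-2 and Mir24-1 share the same 3p strand, and their 5p strands share a seed. The strands miR-27a-3p and miR-27b-3p share a seed as well. For Mir23a and Mir23b only the 5p strands are shown, so their 3p strands are not compared here.
mmu-miR-24-3p (Mir24-2 and Mir24-1): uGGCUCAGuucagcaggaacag
mmu-miR-24-2-5p (Mir24-2): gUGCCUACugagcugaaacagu
mmu-miR-24-1-5p (Mir24-1): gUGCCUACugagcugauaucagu
mmu-miR-27a-3p (Mir27a): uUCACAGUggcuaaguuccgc
mmu-miR-27b-3p (Mir27b): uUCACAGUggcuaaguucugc
mmu-miR-23a-5p (Mir23a): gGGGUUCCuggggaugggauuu
mmu-miR-23b-5p (Mir23b): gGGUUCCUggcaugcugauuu
mmu-miR-692 (Mir692-1, Mir692-2 and Mir692-3): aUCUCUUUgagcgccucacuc
mmu-miR-3064-5p (Mir3064): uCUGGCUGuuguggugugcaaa
mmu-miR-147-5p (Mir147): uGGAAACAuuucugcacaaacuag

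The Mir24-2 hairpin gene lies at chr8:84208815-84208921 on the plus strand (mm10) and is 107 bases long. Capitals mark miR-24-3p within it.
Mir24-2 hairpin: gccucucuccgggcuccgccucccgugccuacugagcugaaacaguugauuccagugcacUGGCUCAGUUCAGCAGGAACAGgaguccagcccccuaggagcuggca

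Hairpin genes that copy other sequences are shown for the values that follow. Capitals mark the 3 bases that differ between Gm22133 and Mir692-3. Gm22133 lies at chr7:45458089-45458197 on the minus strand within Ftl1, partly in its coding sequence. Mir692-3 lies at chr13:74407065-74407173 on the plus strand within Ftl1-ps1, which is named as a pseudogene but listed as protein coding. Capitals also mark the 1 base that differs between Gm23935, at chr16:11144125-11144181 on the plus strand, and Gm24187, at chr13:9834469-9834525 on the minus strand. These sequences and positions are from GENCODE vM21.
Gm22133: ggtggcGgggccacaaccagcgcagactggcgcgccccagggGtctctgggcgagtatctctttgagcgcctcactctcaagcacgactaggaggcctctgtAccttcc
Mir692-3: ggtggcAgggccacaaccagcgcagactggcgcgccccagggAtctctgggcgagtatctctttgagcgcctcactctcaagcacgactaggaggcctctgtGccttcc
Gm23935: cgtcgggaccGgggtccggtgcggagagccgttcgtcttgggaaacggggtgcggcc
Gm24187: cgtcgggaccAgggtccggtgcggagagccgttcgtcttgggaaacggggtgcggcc

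Ncoa3, the targeted gene, had 47.5 and 27.7 FPKM in the tumor libraries labelled SRC-3KO, against 37.7 and 45.4 FPKM in those labelled Control. The groups overlapped, so the gene's value does not separate the labels, and directions below are between libraries as labelled. Without a tumor Ncoa3 had 1092 and 760 counts in the libraries labelled SRC-3KO, against 3311 and 1419 counts in those labelled Control. Treg markers were present in every tumor library, with sums over 9 genes of 2877 and 2809 FPKM in those labelled SRC-3KO and 2381 and 1779 FPKM in those labelled Control. Control replicate 2 stood apart: the sum over 7 neutrophil markers was 1.42 and 0.18 FPKM in the libraries labelled SRC-3KO, against 4.398 and 3576 FPKM in those labelled Control. For 10 monocyte and macrophage markers the sums were 11.9 and 9.31 FPKM, against 48.1 and 1458 FPKM. The sums of 12 B cell and plasma cell markers were 275 and 254 FPKM, against 1724 and 2378 FPKM. These sums were higher in both libraries labelled Control, not in replicate 2 alone. Within the monocyte and macrophage list Apoe had 1.39 and 1.48 FPKM, against 39.8 and 43.0 FPKM, whereas Lyz2 had 0.77 and 0.77 FPKM, against 0.40 and 1108 FPKM. The neutrophil markers Ly6g and Csf3r were listed at 0 in Control replicate 1, and Fcgr1 and C1qc of the monocyte and macrophage list in all 3 libraries other than Control replicate 2. The no-tumor libraries held 27452922 and 31075452 counts (labelled SRC-3KO) and 25251597 and 24159217 counts (labelled Control), whereas FPKM values give no depth for the tumor libraries.

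Most microRNA genes with a value lay inside exons of other genes. Of the 186, 101 lay wholly within a host exon on the same strand, 30 crossed an exon edge, 27 lay in a host intron, 8 overlapped another gene in part, 9 lay in an intron on the opposite strand and 11 lay between genes. For all 2207 microRNA genes these numbers were 271, 83, 818, 31, 226 and 679. A same-strand host held the whole hairpin gene for 158 members, and it was protein coding for 134 and a processed pseudogene for 16. Of the 101 within exons, 14 were wholly coding sequence. The summed level of all 186 members was 12429 and 14276 FPKM in the libraries labelled SRC-3KO, against 12586 and 15347 FPKM in those labelled Control. These sums were 2.99% and 3.50% of all FPKM, against 2.45% and 3.31%. Only 22 members averaged 100 FPKM or more, whereas 115 averaged under 10 FPKM.

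The threshold counted libraries of either genotype, so genotype values of the members in the tumor libraries are a description. At least 1 FPKM was reached in all 4 libraries by 136 members. It was reached in both libraries labelled SRC-3KO and in neither labelled Control by 15, and in both labelled Control and neither labelled SRC-3KO by 7. These 22 entered through the group where they were higher. Just inside the threshold were Mir6374, with 1.03 and 1.02 FPKM in libraries labelled SRC-3KO and listed at 0 in those labelled Control, Mir7079 with 1.43 and 1.04 against 0.0095 and 0.41 FPKM, and Gm47303 with 0.58 and 0.19 against 1.18 and 1.04 FPKM. Mir1192 was just outside, with 0.999 and 1.53 FPKM in libraries labelled SRC-3KO, against 0.48 and 0 FPKM in those labelled Control, as were Mir6972 (0.44 and 0.63 against 0.99 and 2.18 FPKM) and Gm44341 (0.27 and 0.97 against 2.20 and 0.79 FPKM).

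Across all genes, limma (a linear model on log2(FPKM + 1) with Benjamini-Hochberg adjustment, called at an adjusted p under 0.05) tested 12859 and called 14, or 0.109% (0.0156% higher and 0.0933% lower in the libraries labelled SRC-3KO). Among the 186 members it called 1, Mir24-2, and 59 had an unadjusted p under 0.05, beside 16.5% of all genes. Both libraries labelled SRC-3KO lay above both labelled Control for 70 members, beside 27.5% of all genes, and below them for 38, beside 24.9%. With each library's FPKM scaled to the same sum, which moved the median log2 fold change of all genes to 0.21 from -0.02, these counts were 91 and 27, beside 42.9% and 12.2% of all genes. The median log2 fold change of the members, libraries labelled SRC-3KO over those labelled Control, was 0.20.

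Mir24-2, the 1 member called, had 880 and 904 FPKM in the libraries labelled SRC-3KO and was listed at 0 in both labelled Control (limma adjusted p = 0.000145). No fold is given against a value listed at 0 in a table without counts, and the gene entered the set through the libraries labelled SRC-3KO. With either of these left out it no longer had 1 FPKM in 2 libraries and was not tested. Its neighbors in the same cluster were low. Mir23a had 0.20 and 0 FPKM, against 0 and 0.95 FPKM, and Mir27a had 0.59 and 0.71 FPKM, against 0 and 0.21 FPKM. The long noncoding RNA gene Gm26532 (chr8:84208920-84209609) overlaps Mir24-2 on the same strand by 2 bases and had 2.55 and 2.62 FPKM, against 0 and 0.13 FPKM. In the libraries labelled SRC-3KO, Mir23a, Mir27a and Gm26532 lay far below Mir24-2. Mir3074-2, whose hairpin lies on the opposite strand of Mir24-2, had 1.49 and 0 FPKM and was listed at 0 in both libraries labelled Control; the kit is not stated to mark strand, so reads of the 2 genes cannot be told apart. Without a tumor Mir24-2 had no reads in any of the 4 libraries, which allows up to 0.109 and 0.0965 CPM (counts scaled to the library total) in those labelled SRC-3KO and 0.119 and 0.124 CPM in those labelled Control, for counting error only. How reads over several genes were counted is not stated in the labels, and Mir24-2 overlaps Gm26532 and Mir3074-2, so these limits do not cover reads left unassigned. Gm26532 had 109 and 112 counts there, against 34 and 210 counts.

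The second copy of the cluster lies in Aopep, an aminopeptidase gene on chromosome 13. Mir24-1, in an exon of Aopep outside its coding sequence, had 5.83 and 4.35 FPKM in the libraries labelled SRC-3KO, against 1.80 and 2.35 FPKM in those labelled Control. Mir27b had 2.83 and 1.45 FPKM, against 0.27 and 0 FPKM. Mir23b, in an intron, had 1.20 and 1.99 FPKM and was listed at 0 in both libraries labelled Control. Aopep itself had 54.7 and 71.3 FPKM, against 41.0 and 26.2 FPKM, a log2 fold change of 0.91 ± 0.28 (SE, n = 2 against 2) that missed the threshold (limma adjusted p = 0.235). All 3 hairpin genes and Aopep were higher in both libraries labelled SRC-3KO, beside 27.5% of all genes. The 3 hairpin genes lay far below Aopep in level per length. Without a tumor all 3 had no reads, and Aopep had 203 and 170 CPM, against 67.4 and 143 CPM. All 101 members within host exons had no reads there, so a count of 0 for such a member does not show that it was absent.

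**Figure D1:**
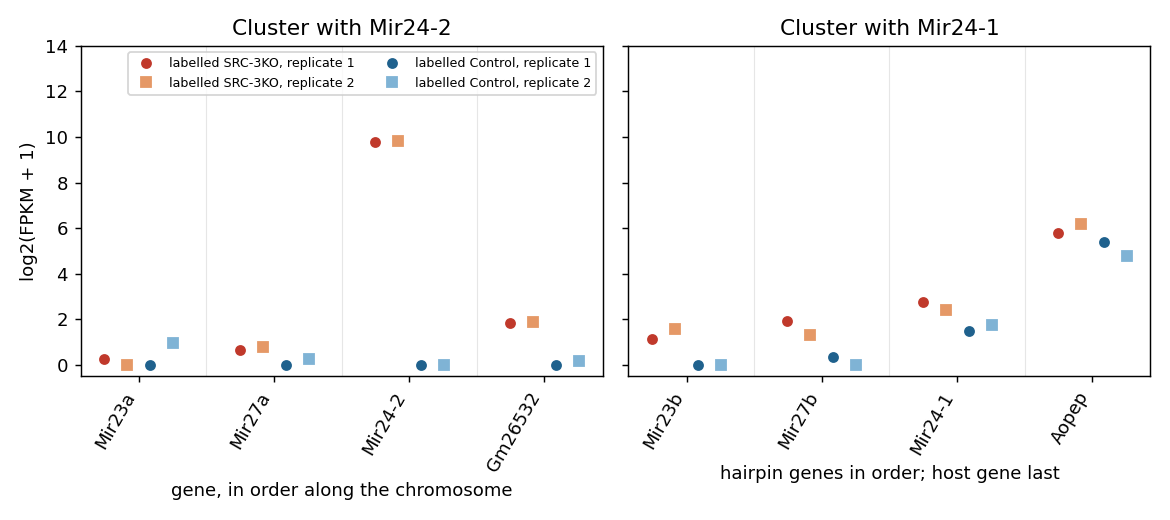
Level as log2(FPKM + 1) in each tumor library of the hairpin genes of the cluster with Mir24-2 and the adjacent Gm26532 (left) and of the cluster with Mir24-1 and its host Aopep (right), with 1 point per library. Mir24-2 reaches 880 and 904 FPKM in the libraries labelled SRC-3KO and is listed at 0 in those labelled Control, while Mir23a, Mir27a and Gm26532 stay at or below 2.62 FPKM.

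Of 67 microRNA genes on a list of those studied in T cells, 6 were members, namely Mir24-2, Mir24-1, Mir27b, Mir23b, Mir21a and Mir22. The others included 30 listed at 0 in all 4 tumor libraries, and 54 of the 67 stayed below 1 FPKM in every tumor library. Of the 6, 4 were higher in both libraries labelled SRC-3KO (Mir24-2, Mir24-1, Mir27b and Mir23b), beside 27.5% of all genes. Mir24-2, Mir27b and Mir23b stayed below 1 FPKM in the libraries labelled Control and so entered the set through those labelled SRC-3KO. Mir21a, in an exon of Vmp1, had 1.92 and 5.93 FPKM, against 2.16 and 0.099 FPKM. Mir22, in Mir22hg, had 4.37 and 6.94 FPKM, against 1.53 and 11.8 FPKM, so both overlapped between the groups. Mir155, studied for its role in Tregs, had 0.30 and 1.84 FPKM, against 0.010 and 0.42 FPKM, and was not a member. No member was on the list of 17 microRNA genes of other cells, of which 16 were listed at 0 in all 4 tumor libraries. The exception was Mir223, a microRNA of myeloid cells, listed at 0 in 3 libraries and at 3.57 FPKM in Control replicate 2.

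Of the 22 members that averaged 100 FPKM or more, 15 lay within host exons, many of them in abundant messenger RNAs or their pseudogenes. Gm22133, whose 109 bases include 88 of Ftl1 (ferritin light chain) coding sequence, had 1391 and 1142 FPKM in the libraries labelled SRC-3KO, against 2314 and 5070 FPKM in those labelled Control. Ftl1 had 663 and 537 FPKM, against 1116 and 2433 FPKM. Gm22133 belongs to a group of 7 members that share sequence (at least 20% of the 25-base stretches of a member). The others are Mir692-1, Mir692-2, Mir692-3, Gm22774, Gm26445 and Gm22751. All 7 were lower in both libraries labelled SRC-3KO, beside 24.9% of all genes. They share sequence with each other and with Ftl1, so they can share reads and are not separate measurements. The median log2 fold change of the 7 was -1.44, beside -1.46 ± 0.45 (SE) for Ftl1 (limma adjusted p = 0.236). It stayed below 0 under every scaling tried. Control replicate 2 was the highest library for each of the 7 and also held the neutrophil and macrophage transcripts given above, whose part was not tested. In bulk samples, fewer cells of a type and less RNA per cell cannot be told apart. Mir692-3, 1 of these 7, had 247 and 203 FPKM in the libraries labelled SRC-3KO, against 416 FPKM in Control replicate 1. All FPKM summed to 514349 in that Control library, against 416186 and 408458 in those labelled SRC-3KO. Its summed B cell and plasma cell markers, given above, were also higher than in those labelled SRC-3KO. The part of either was not tested.

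Of the 6 members that copy Actg1 (cytoplasmic actin), 4 had both libraries labelled SRC-3KO above both labelled Control, beside 27.5% of all genes, and the 6 share sequence. Gm23419, the highest, had 2351 and 1811 FPKM, against 1622 and 1789 FPKM, Gm22801 had 503 and 405 against 350 and 378 FPKM, and Gm25241, with 255 and 193 against 168 and 199 FPKM, overlapped. Actg1 had 1336 and 1071 FPKM, against 945 and 1030 FPKM. The 6 that copy Rpl19, of the large ribosomal subunit, include Gm27288 with 501 and 471 FPKM, against 785 and 501 FPKM, and Gm27597 with 178 and 182 FPKM, against 310 and 190 FPKM. Their median log2 fold change was -0.36, and with FPKM scaled to the same sum -0.12. For the 6 that copy Rpl37a, another protein of the large ribosomal subunit, led by Mir682 with 1178 and 1057 FPKM, against 1883 and 1084 FPKM, the median was -0.20 but 0.03 with FPKM scaled to the same sum. Gm26377, in an exon of the elongation factor gene Eef1a1, had 937 and 1088 FPKM, against 1314 and 1079 FPKM, and overlapped. Eef1a1 itself had 1706 and 1831 FPKM, against 1416 and 1545 FPKM, a log2 fold change of 0.26 ± 0.33 (SE). The difference between this member and its host was not tested. Gm26377 shares sequence with Gm26384 and Mir703. Their median log2 fold change was -0.24, and with FPKM scaled to the same sum 0.005. Mir686, wholly in coding sequence of the proteasome gene Psmb5, had 255 and 222 FPKM, against 372 and 269 FPKM.

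**Figure D2:**
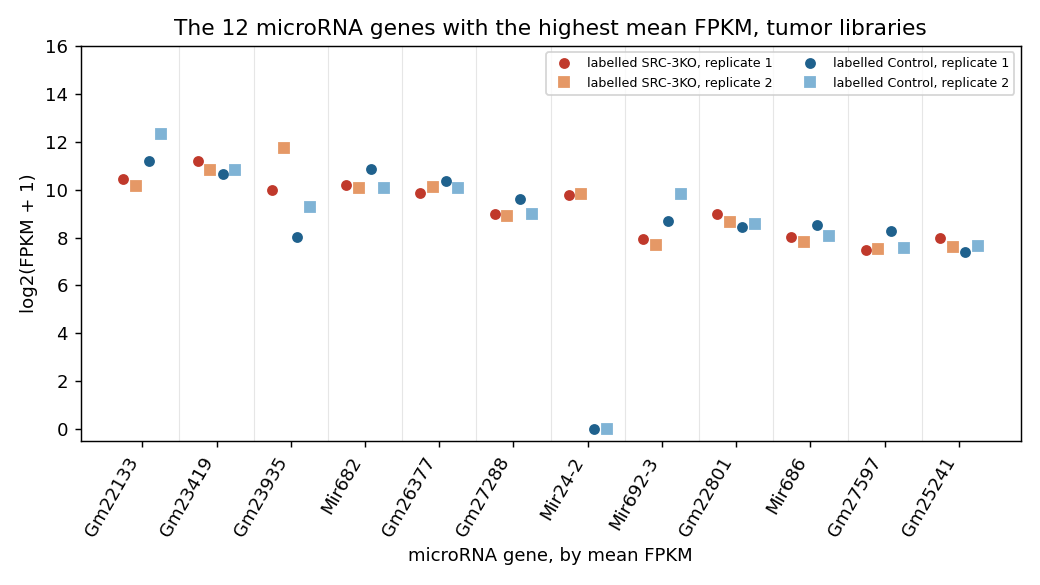
Level as log2(FPKM + 1) of the 12 microRNA genes with the highest mean, in each of the 4 tumor libraries. Mir24-2 alone is listed at 0 in both libraries labelled Control, and Control replicate 2 is the highest library for Gm22133 at 5070 FPKM.

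Gm23935 and its copies varied several-fold between libraries of the same label. Gm23935, Gm24270 and Gm24245 are identical over 57 bases, and Gm24187 differs from them by the 1 base shown. Gm23935 had 998 and 3449 FPKM in the libraries labelled SRC-3KO, against 261 and 610 FPKM in those labelled Control, with replicate 2 of those labelled SRC-3KO the highest. Gm24270, in an intron of Peak1, had 77.5 and 285 FPKM, against 13.4 and 36.8 FPKM, while Peak1 had 3.16 and 3.73 FPKM, against 1.15 and 1.87 FPKM. Gm24187 had 34.7 and 164 FPKM, against 13.8 and 28.3 FPKM. The groups of these 3, which share sequence, did not overlap, beside 27.5% of all genes higher in both libraries labelled SRC-3KO. Those of Gm24245 did overlap, at 4.201 and 21.8 FPKM against 0.43 and 5.35 FPKM. Gm25911 (7.06 and 22.8 against 1.09 and 2.43 FPKM) and Mir6236 (22.0 and 71.6 against 6.998 and 6.34 FPKM) share no 25-base stretch with them, and were also highest in replicate 2 of those labelled SRC-3KO. The ribosomal RNA gene CT010467.1 had 368 and 519 FPKM, against 226 and 300 FPKM, and its part in these values was not tested.

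**Figure D3:**
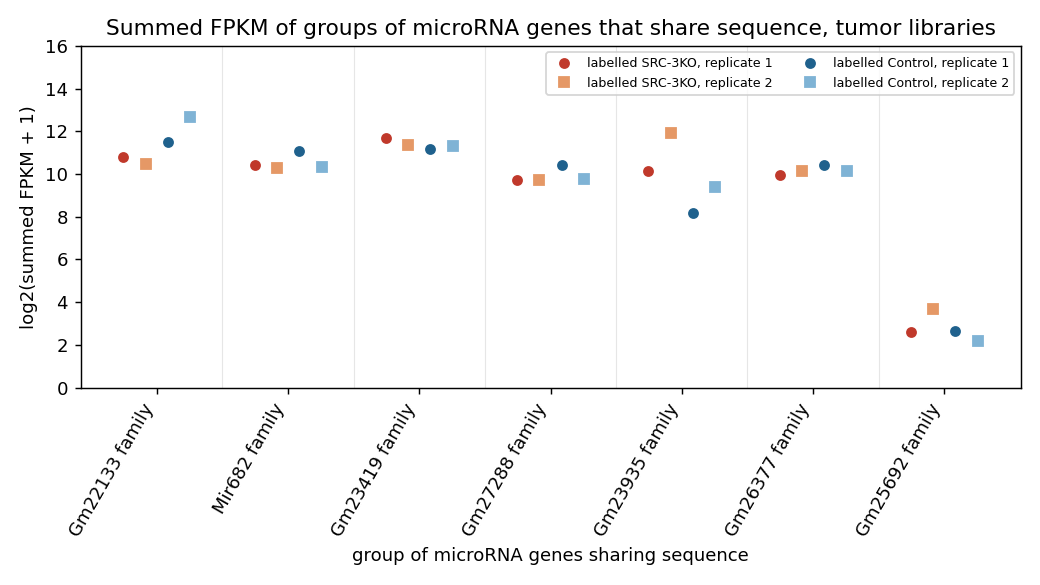
Summed level, as log2(FPKM + 1), of 7 groups of at least 3 members that share sequence, in each tumor library, named by the member with the highest mean. The Gm22133 sum is lower in the libraries labelled SRC-3KO (1765 and 1436 FPKM, against 2936 and 6450 FPKM in those labelled Control).

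Both members of Ddx5, an RNA helicase of the Drosha complex, were higher in both libraries labelled SRC-3KO, as was their host. The same held for 27.5% of all genes. Mir3064 had 16.3 and 23.0 FPKM in the libraries labelled SRC-3KO, against 1.20 and 2.32 FPKM in those labelled Control, and Gm25994 had 19.7 and 27.9 FPKM, against 3.24 and 4.62 FPKM. Ddx5 had 67.99 and 72.1 FPKM, against 39.6 and 36.9 FPKM. The log2 fold changes were 2.92 ± 0.31 for Mir3064 and 2.32 ± 0.27 for Gm25994, beside 0.86 ± 0.17 for Ddx5 (SE), and none passed the threshold in limma (adjusted p = 0.0847, 0.0993 and 0.156). With the replicate numbers as a block, Mir3064 passed in limma at an adjusted p of 0.0158 and Gm25994 at 0.0277. The labels do not say that a number marks a shared animal or batch, and deviations of same-numbered libraries correlated at 0.0357. The difference between members and host was not tested. Both lie in an exon of a Ddx5 transcript, Gm25994 wholly outside coding sequence.

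Mir5107, Gm23634 and Mir147 are given beside their hosts, and none of the 3 passed the threshold in limma. Mir5107, at an exon edge of Cd74 (the invariant chain of class II MHC), had 29.1 and 34.8 FPKM, against 52.2 and 364 FPKM, and Cd74 had 166 and 195 FPKM, against 311 and 2130 FPKM. Gm23634, in Stmn1, a microtubule-destabilizing protein of dividing cells, had 0 and 0.62 FPKM, against 2.90 and 2.66 FPKM. It stayed below 1 FPKM in the libraries labelled SRC-3KO and so entered the set through those labelled Control. Stmn1 had 13.3 and 12.6 FPKM, against 53.8 and 34.7 FPKM. Mir147, in AA467197, had 1.01 and 2.45 FPKM, against 1.79 and 215 FPKM, and AA467197 had 0.61 and 1.51 FPKM, against 1.52 and 116 FPKM. Mir147 overlapped between the groups in that Control replicate 1 was between the libraries labelled SRC-3KO. The highest values of Mir5107 and Mir147 were in Control replicate 2, the library with the neutrophil and macrophage transcripts, whose part was not tested. The summed B cell and plasma cell markers were higher in both libraries labelled Control, and their part was not tested either. Mir8092 was high in Control replicate 1 alone, with 0.75 and 0.32 FPKM in the libraries labelled SRC-3KO, against 73.8 and 1.30 FPKM in those labelled Control.

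Members were set beside their hosts by position, as a description. The median ratio of a member's mean FPKM to its host's was 0.70 for the 101 within exons and 0.089 for the 27 in introns. Of members with a tested host, 80 of 100 within exons, 24 of 29 at exon edges, 20 of 25 in introns, 5 of 6 opposite an intron and 4 of 8 that overlap a gene in part had a log2 fold change of the same sign as the host's. Pearson's r between the fold changes of member and host was 0.66 within exons, 0.92 at exon edges and 0.55 in introns. It was 0.58 opposite an intron and 0.75 in partial overlap. By rank (Spearman's rho) these were 0.62, 0.80, 0.54, 0.77 and 0.33. The 8 members in partial overlap include Mir24-2, for which no fold is given above. Its fold against values listed at 0 still enters r and rho there, and neither was computed without it. Members and hosts share libraries and can share reads, and several members share a host or sequence.

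Further members, chosen after their values were seen, show the range within hosts of immune cells. Mir1903, in an exon of Nrp1, a receptor found on thymus-derived Tregs, had 34.3 and 21.1 FPKM in the libraries labelled SRC-3KO, against 13.6 and 9.33 FPKM in those labelled Control. Mir5104, in an intron of Zc3h12d, a relative of the ribonuclease gene Zc3h12a, had 9.27 and 8.28 FPKM, against 2.90 and 3.48 FPKM. Mir6974, in an intron of the lymphotoxin gene Lta, had 8.98 and 15.3 FPKM, against 4.14 and 3.72 FPKM. These 3 were higher in both libraries labelled SRC-3KO, beside 27.5% of all genes. Mir6973a, in an intron of Ltb, which encodes the partner of Lta in membrane lymphotoxin, had 4.86 and 6.56 FPKM, against 3.60 and 7.03 FPKM and overlapped. Mir6374 lies in an intron of Tet3, a DNA demethylation enzyme, which had 3.28 and 2.92 FPKM, against 0.65 and 1.14 FPKM. Mir142b, opposite an intron of Mir142hg, had 1.70 and 3.09 FPKM, against 1.001 and 0 FPKM. Mir671, wholly in coding sequence of Chpf2, was near 0 in replicate 1 of the libraries labelled SRC-3KO, with 0.0027 and 14.8 FPKM, against 12.8 and 14.2 FPKM in those labelled Control.

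**Figure D4:**
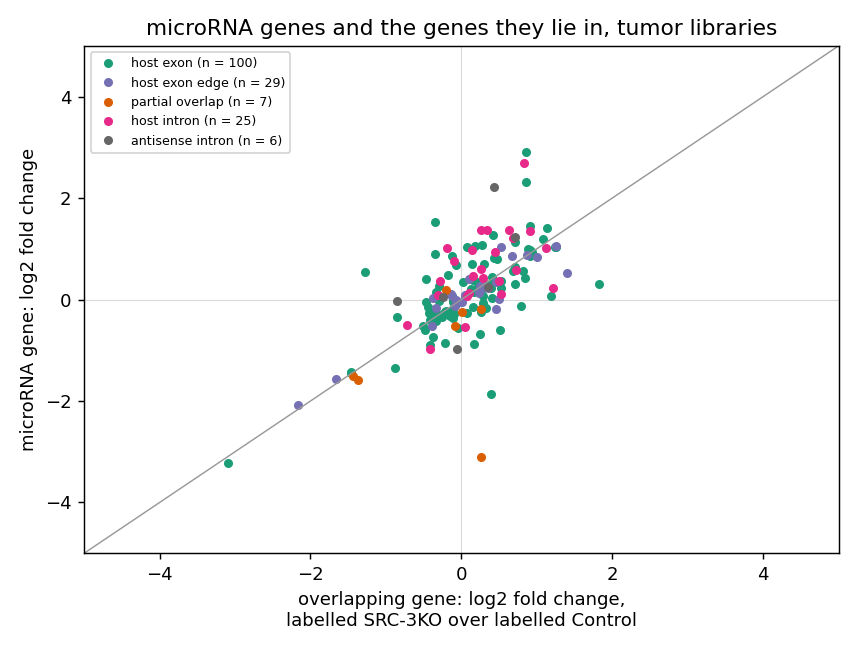
Log2 fold change of each member in the tumor libraries, libraries labelled SRC-3KO over those labelled Control, on the vertical axis, against that of the gene it overlaps on the horizontal axis, 1 point per member with a tested overlapping gene, by position; the diagonal marks equality and Mir24-2 is not drawn. Within host exons 80 of 100 members have the same sign as their host, and Mir3064 lies highest at 2.92.

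The genes that make and use microRNAs were measured beside them. Of 34 on the list of microRNA processing genes, 28 were tested in the tumor libraries and limma called 0, with 8 at an unadjusted p under 0.05, beside 16.5% of all genes. Both libraries labelled SRC-3KO were above both labelled Control for 15, beside 27.5% of all genes, and below for 3, beside 24.9%, and the median log2 fold change was 0.36, against -0.02 over all genes. Tnrc6b, a scaffold of the silencing complex, had 2.05 and 3.07 FPKM, against 0.46 and 0.43 FPKM, and Ago2, the Argonaute that cleaves targets, had 10.2 and 9.52 FPKM, against 5.77 and 5.50 FPKM. Khsrp, which promotes processing of some hairpins, had 37.3 and 37.3 FPKM, against 18.5 and 21.8 FPKM, and Zc3h12a, a ribonuclease that can cleave hairpin loops, had 2.59 and 3.31 FPKM, against 0.78 and 0.88 FPKM. Dicer1 had 3.60 and 3.97 FPKM, against 2.29 and 1.59 FPKM. Tnrc6a (2.05 and 2.46 against 1.30 and 0.53 FPKM) and Adar, an RNA editing enzyme (12.4 and 12.8 against 5.84 and 9.17 FPKM), were also higher in both libraries labelled SRC-3KO. The 3 with both libraries labelled SRC-3KO below both labelled Control were Ran, the GTPase of nuclear transport (210 and 198 against 326 and 216 FPKM), Prkra, a partner of Dicer (2.04 and 1.84 against 2.40 and 2.75 FPKM), and Ncbp2, of the cap-binding complex (15.7 and 15.2 against 20.6 and 16.1 FPKM). Within Dgcr8 itself, Mir1306, wholly in coding sequence, had 9.53 and 10.2 FPKM, against 6.78 and 8.53 FPKM. Without a tumor the median over 31 tested genes of the list was -0.53, with no median over all genes given beside it. In both libraries labelled SRC-3KO 9 were lower and 5 higher, beside 21.0% and 18.3% of all genes. Control replicate 1, the library named wild type, stood apart for some of them. Khsrp had 15.8 and 16.6 CPM, against 118 and 20.6 CPM, while Ncbp1 had 104 and 101 CPM, against 24.2 and 66.8 CPM. There edgeR and DESeq2 called 0, and 0 had an unadjusted edgeR p under 0.05.

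The no-tumor libraries, which the threshold did not use, gave reads for few of the same genes. Of the 186, 149 had no read in any of the 4, including all 101 within host exons, and 37 had at least 1 read. How reads over several genes were counted is not stated in the labels. Enough counts to test were present for 15, and edgeR's quasi-likelihood test called 0 of them, beside 0.0% of 14860 genes. An unadjusted p under 0.05 was found for 4, beside 3.18% of all genes. DESeq2, which was not limited to these 15, called 5 members, beside 0.968% of 16224 genes. Gm23935, Gm24270, Gm24187 and Gm24245 are among the 15 and share sequence, so they are not separate measurements. The groups overlapped for 11 of the 15, whereas Mir692-2 was higher and Gm24245, Mir6236 and Mir3091 were lower in both libraries labelled SRC-3KO, beside 18.3% of all genes higher and 21.0% lower.

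Gm23935 was highest in Control replicate 1 without a tumor. It had 299 and 268 CPM in the libraries labelled SRC-3KO, against 21581 and 202 CPM in those labelled Control. Gm24270 had 19.4 and 20.6 CPM, against 1691 and 16.3 CPM, Gm24187 had 8.96 and 8.50 CPM, against 957 and 8.11 CPM, and Gm24245 had 0.26 and 0.51 CPM, against 38.9 and 0.54 CPM. Gm25911 (2.26 and 1.38 against 160 and 1.74 CPM) and Mir6236 (0.84 and 0.42 against 19.8 and 0.99 CPM) did likewise. The ribosomal RNA gene CT010467.1 held 15766 and 17865 counts, against 424616 and 17232 counts, and its part was not tested. Control replicate 1 is the library named wild type. Without Control replicate 2, which leaves that library as the only Control, 8 of 17 members tested were called by edgeR, beside 43.8% of 16963 genes, a fit in which the lone library is assumed to vary like the other group.

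Of the other members tested, Gm26384, which copies Eef1a1, and Gm24276 were lowest in Control replicate 1. Gm26384 had 15.95 and 14.9 CPM in the libraries labelled SRC-3KO, against 2.89 and 21.3 CPM in those labelled Control, and Gm24276 had 8.38 and 7.05 CPM, against 1.43 and 11.5 CPM. Among the copies of Ftl1, Mir692-1 had 8.34 and 5.50 CPM, against 5.66 and 6.00 CPM, Gm26445 had 5.17 and 3.99 CPM, against 4.28 and 3.02 CPM, and Mir692-2 had 1.42 and 0.77 CPM, against 0.59 and 0.50 CPM. None of these 3 passed the threshold (edgeR adjusted p = 0.934, 0.931 and 0.910).

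**Figure D5:**
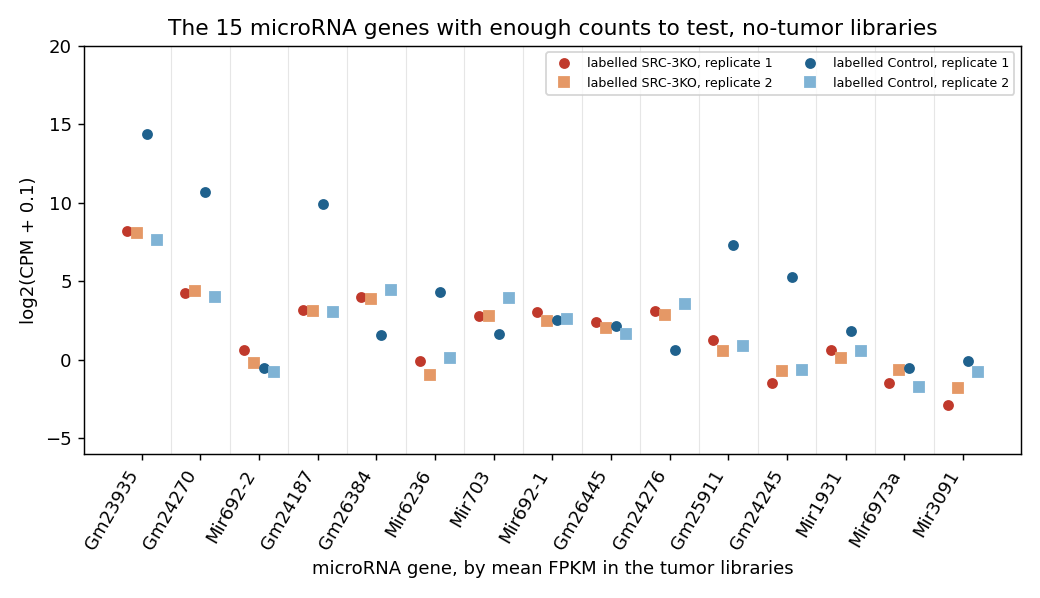
Level as log2(CPM + 0.1) of the 15 members with enough counts to test in each of the 4 no-tumor libraries. Control replicate 1 lies far above the others for Gm23935 (21581 CPM), Gm24270, Gm24187, Gm25911 and Gm24245, and below them for Gm26384 and Gm24276.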

How the data were processed

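Per the submitters' processing notes, FastQC, Trim Galore, STAR, featureCounts and edgeR were used with genome build mm10, with no versions. The deposited table of the 4 no-tumor libraries holds raw read counts, and that of the 4 tumor libraries holds FPKM values, which the authors made with StringTie per the file headers. No library is in both tables, so the states were fitted separately and not compared. FPKM were tested as log2(FPKM + 1) with limma 3.58.1 for genes that reached 1 FPKM in 2 or more libraries. Counts were tested with edgeR 4.0.16 (filterByExpr, TMM, quasi-likelihood test), with DESeq2 1.42.0 as an alternative, and shown as CPM of the library total. Tests ran in R 4.3.3 over all genes with Benjamini-Hochberg adjustment, and scripts were tested on simulated data. Hosts and positions came from GENCODE vM21, matched by gene ID. A short gene with few reads gets a large FPKM, and reads shared between copies can be split.

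Genes were named by a fixed rule: members called, the 12 highest, the largest separated differences, members on the lists, the smallest no-tumor p-values and those at the threshold. Mir147, Mir1306, Mir671, Mir1903, Mir5104, Mir6974, Mir6973a, Mir142b, CT010467.1 and some copies were added after their values were seen. Members and lists were chosen with earlier results of these data known. Same-numbered tumor libraries had deviations correlated at 0.0357, and the labels do not say that a number marks a shared animal or batch. A group of members that share a sequence is not reported here.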

Additional observations from a re-analysis of the deposited data

Results flagged for a closer look

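For 2 members the groups did not overlap in either state and had opposite directions with and without a tumor. The difference between the states was not tested, and the share of all genes with opposite directions was not counted. Of all genes, 27.5% were higher and 24.9% lower in both libraries labelled SRC-3KO with a tumor. Without a tumor these shares were 18.3% and 21.0%. Mir6236 had a log2 fold change, libraries labelled SRC-3KO over those labelled Control, of 2.41 with a tumor and -3.996 without. The value without a tumor rests on Control replicate 1, since Mir6236 had 0.84 and 0.42 CPM in the libraries labelled SRC-3KO, against 19.8 and 0.99 CPM in those labelled Control, and without that replicate the log2 fold change was -0.59. Mir692-2, which copies Ftl1, had a log2 fold change of -1.59 with a tumor and 1.09 without. Neither passed the threshold in limma with a tumor (adjusted p = 0.165 for Mir6236 and 0.214 for Mir692-2) or in edgeR without a tumor (adjusted p = 0.910 for both). Groups of 2 are too small for a test of single libraries far from the others.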

How the results depend on the processing

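Mir24-2 was not tested with either library labelled SRC-3KO left out, and its values in these libraries chose it, so its calls under other settings are no sign of stability. In the tumor libraries 14 genes and 1 member were called, against 7 genes with pseudocount 0.1, 1 with no filter, 4 when scaled to the same sum, 4 when that sum left out short genes, and 30 genes with 5 members when at least 5 FPKM was needed. With the replicate block, whose numbers the samples may share only by name, 72 genes and 8 members were called, all 8 higher in libraries labelled SRC-3KO. Leaving out a library gave 31 to 2510 genes and 1 to 41 members, the most without Control replicate 2. A lone library is assumed to vary like the other group. Without SRC-3KO replicate 2 the 1 member called was Mir671. In the no-tumor libraries 0 genes and 0 members were called, against 157 genes and 5 members by DESeq2 and 70 genes and 4 members with no filter, while leaving out a library gave 0 to 7434 genes and 0 to 8 members. No paired analysis was possible without a tumor because the labels give no shared replicate numbers. The number of members was 186, 242 at 0.5 FPKM, 100 at 5 FPKM and 136 in all 4 libraries. Members with both libraries labelled SRC-3KO higher numbered 67 to 91 and lower 27 to 43 over the scalings, which were chosen after seeing the data, beside 26.1% to 42.9% and 12.2% to 28.9% of all genes. With a library left out they numbered 87 to 95 and 48 to 61, beside 34.1% to 45.4% and 32.5% to 46.6%. Of 415 fold changes of named members with a tumor, 5 changed sign, in Gm26377, Mir22 and Mir682, and without a tumor 6 of 77. The cause was not tested. The unknown depth of the tumor libraries limits what a low FPKM can show.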
